A study of Equus caballus with 4 samples.

Results

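The genes of the core splicing machinery and of the SR proteins were taken as those whose probes carry, in the array annotation, a name of the SRSF, hnRNP, SF3A or SF3B, SNRP, U2AF, PRPF or LSM family. The name pattern found 125 probes of 58 genes among the 24998 gene names of the array. By family, these were 7 genes for SR proteins, 14 for hnRNPs, 1 for U2AF, 7 for SF3A and SF3B, 8 for SNRP proteins, 9 for LSM proteins and 12 for PRPF proteins.

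Messenger RNA was measured in differentiating equine satellite cells, the stem cells of skeletal muscle, isolated from the *semitendinosus* muscle of colts. The cells were grown with 10% fetal bovine serum and 10% horse serum, moved to a differentiation medium with 2% horse serum, and after day 2 of differentiation received HMB (β-hydroxy-β-methylbutyrate), which cells make from leucine, for 24 h. Control cells stayed in the differentiation medium without HMB, and both were collected on day 3. The dose is 50 µg in the deposited sample descriptions, whereas the methods of the study give the same figure in µM. Each of 4 two-colour arrays (*n* 4) set HMB-treated cells, labelled with Cy5, against control cells, labelled with Cy3. The dyes were never exchanged, so that any preference of a probe for Cy5 or Cy3 enters its ratio. All 4 arrays lay on 1 slide and carried 1 scan label. The descriptions name the arrays as 4 biological replicates, but they also call the treated cells GO-treated and repeat a replicate number. The titles and source names, which say HMB, were followed here. The colt behind each array is not named in the sources used here.

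Splicing removes introns from a precursor mRNA. The U1 and U2 snRNPs, particles built of small nuclear RNA and proteins, recognise the ends of the intron, and the U4/U6.U5 tri-snRNP then joins them to form the active spliceosome. SR proteins bind exons and mostly favour the use of nearby splice sites, and many hnRNPs oppose them, so that the balance of these factors helps to set which exons a cell keeps. In muscle, alternative splicing changes many transcripts of contractile and signalling proteins as myoblasts become myotubes.

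The values are log2 ratios of HMB-treated over control cells, so that 0 stands for equal signal and a positive value for more mRNA in HMB-treated cells. Testing required that a probe stood well above background in the same channel on every array where its spot was usable, at least 3 of the 4. This held for 27383 of 43603 probes and for 120 of the 125 splicing probes, of which 119 were well above background in both channels on every array. Each gene took the values of its brightest tested probe, which gave 56 splicing genes among 15614 genes. The 2 genes left out were *LSM11*, all 4 probes of which were below background on every array, and *PRPF40B*, the probe of which was above background on 3 arrays in Cy3 and 2 in Cy5. The mean was compared with 0 in limma (two-sided), P values were adjusted over the 27383 probes by the method of Benjamini and Hochberg, and the threshold was 0.05. Values after ± are SD between arrays, the number of which limits the precision of every value.

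Few splicing genes passed the threshold, and those that did were higher in HMB-treated cells. Of the 56 tested genes, 6 were differentially expressed, whereas 3504 of all 15614 genes (22.4%) were. All 6 were higher, against 1699 of all genes (10.9%), and 0 were lower, against 1805 of all genes (11.6%). Before adjustment, limma gave a P under 0.05 to 16 splicing genes that were higher and 1 that was lower. Together these were 30.4%, beside 37.9% of all genes. The methods' t-test gave such a P to 13 and 5. The share of all genes for that count is not given here, nor for the other t-test counts before adjustment. After adjustment, 0 splicing genes passed in that test, beside 411 of all genes (2.63%). Over probes, 19 of 120 splicing probes (15.8%) passed, all of them higher and belonging to 9 genes, beside 6257 of all probes (22.8%). The 6 genes were *SRSF1*, *HNRNPA1*, *HNRNPK*, *SNRPA*, *LSM2* and *LSM12*. These calls depend on each array. Without array 2, 0 of the 6 passed, without array 3 only *LSM2* did, without array 4 there were 3 (*LSM2*, *LSM12* and *SRSF1*), and without array 1 there were 4, *HNRNPA1* and *HNRNPK* being lost. The share of all genes past the threshold was then 8.96%, 9.6%, 17.1% and 17.2%, in the same order.

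The ratios of the splicing genes were small and mostly positive. The median over the 56 genes was 0.10, and that over all genes was 0.02. The mean of 45 genes (80.4%) was above 0, compared with 53.4% of all genes, and 43 genes (76.8%) lay within 0.2 of 0, compared with 62.1%. The median of the splicing genes was 0.14, 0.06, 0.04 and 0.15 on arrays 1 to 4. That of all genes was 0.01, 0.01, 0.03 and 0.01, also positive on each array. The 2 medians were close on array 3 and furthest apart on arrays 1 and 4. Of the 56 genes, 26 (46.4%) had a positive ratio on all 4 arrays and 7 (12.5%) a negative ratio on all 4, compared with 24.4% and 21.4% of all genes. The size of this shift depends on the background correction and dye normalisation. With normexp correction and loess, the median of the splicing genes was 0.06, and 42 means were above 0. When lowess was replaced by centring each array on its median, the median of the splicing genes was 0.21 while that of all genes was 0.04, and 15 splicing genes passed the threshold (26.8%), all of them higher, beside 27.1% of all genes.

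**Figure D1:**
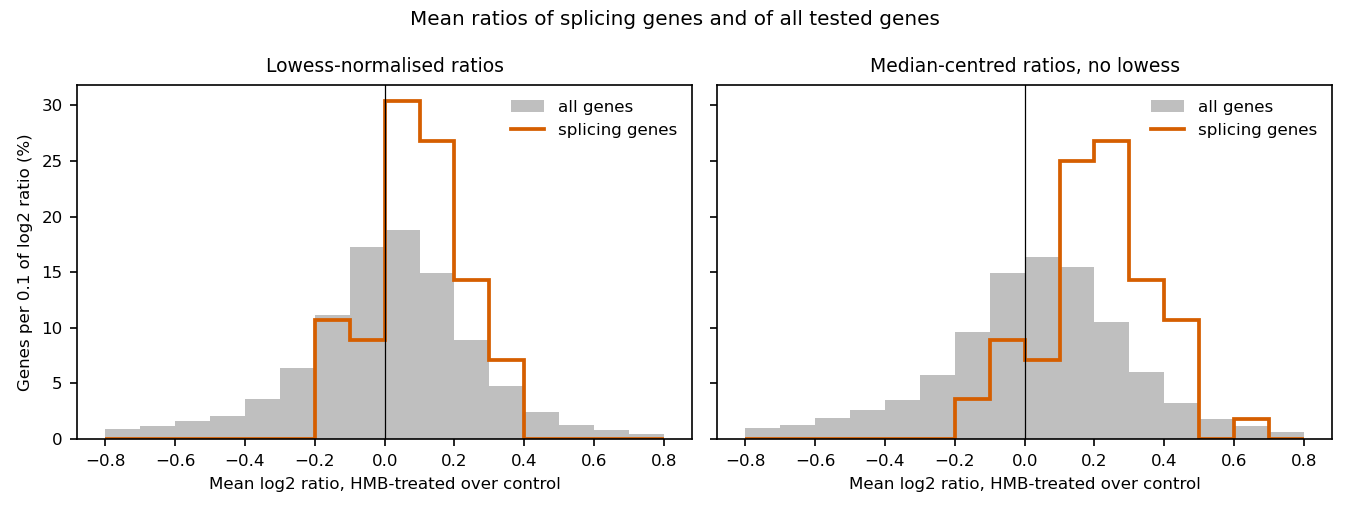
Share of genes, in percent, per 0.1 of mean log2 ratio for all tested genes (grey) and the splicing genes (orange), with the lowess-normalised ratios on the left and median-centred ratios without lowess on the right; 3.41% and 4.21% of all genes and 1 splicing gene in each panel lie outside the axes. The median of the splicing genes is 0.10 on the left and 0.21 on the right.

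Markers of the labelled cell type were present and moved with the treatment. All 10 tested myogenic markers, of 13 listed, gave clear signal in both channels of every array, and all 10 were differentially expressed and lower in HMB-treated cells, with a median of -0.98 and means from -1.93 (*MYH8*) to -0.28 (*MYF6*). Their summed signal on arrays 1 to 4 was 152241, 107135, 100373 and 90860 in HMB-treated cells. In control cells it was 212196, 212576, 231116 and 241902. The brightest probe among these markers was that of *MYH3*, the embryonic myosin heavy chain, in HMB-treated and in control cells. With no lowess the median of these markers was -0.49, and 9 of the 10 were lower and past the threshold. Without array 2, 3 or 4, 6 of the 10 passed in each case, 9 did without array 1, and 2 did with no filter on dim probes. In the methods' t-test 0 passed, although 9 had a P under 0.05 before adjustment. Of the 6 tested fibroblast markers, 1 passed, *PDGFRA* (1.53), and the median was -0.05. All 6 gave clear signal in both channels of every array. The mean log2 signal of *COL1A2* was 17.19 in control and 17.00 in HMB-treated cells, and that of *COL3A1* 16.80 and 16.58. That of *MYH3* was 16.44 and 15.32. The other tested fibroblast markers were dimmer than *MYH3* in control cells, *PDGFRA* most of all (5.27). The 5 endothelial markers and the 3 adipocyte markers with a probe, among them *PECAM1*, *VWF*, *ADIPOQ* and *FABP4*, were too dim to be tested. Among the leukocyte markers, *CD68* (-0.29, adjusted P of 0.12) missed the threshold, while *CD3E*, *ITGAM* and *CSF1R* were too dim. The part of the change in myogenic markers in the ratios of the splicing genes was not tested. In RNA from whole cultures, fewer cells of a type and less RNA per cell cannot be told apart.

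Among the SR proteins, which share RNA-recognition motifs and a domain rich in arginine and serine, 1 of 7 tested genes passed the threshold. This was 14.3%, beside 22.4% of all genes. The means ran from 0.00 to 0.35, with a median of 0.09. *SRSF1* is the founding member of the family and acts in both constitutive and alternative splicing. Its brighter probe (NM_001195548, EquCab1 chromosome 11, 31036918 to 31037177, minus strand) gave log2 ratios of 0.27, 0.26, 0.28 and 0.48 on arrays 1 to 4. Arrays 1 to 3 were close together and array 4 was above them. The mean was 0.32 ± 0.11 (*n* 4), 1.25-fold, higher on 4 of 4 arrays with an adjusted P of 0.0204 in limma. The second probe of the gene, on the same chromosome from 31034407 to 31034466, gave 0.08, 0.33, 0.57 and 0.82. This was a wider spread around a mean of 0.45 ± 0.32 (adjusted P of 0.0441). The second probe was dim, with a mean log2 signal of 4.97 in control and 5.42 in HMB-treated cells. At the brighter probe these were 7.95 and 8.27.

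The highest mean of the family was that of *SRSF12*, which lay on the other side of the threshold by a narrow margin. It passed with an intensity trend, normexp correction, no lowess, signal required in both channels, probes averaged or array 1 left out. It missed the threshold in the other settings. Without array 4 the mean of *SRSF12* was 0.25 and that of *SRSF1* 0.27, and with probes averaged they were 0.35 and 0.39. The brighter probe of *SRSF12* (ENSECAT00000020249, chromosome 10, 36269265 to 36269324) gave 0.07, 0.37, 0.31 and 0.65, a mean of 0.35 ± 0.24 and an adjusted P of 0.0503. The adjacent probe, from 36269325 to 36269386, gave 0.17, 0.38, 0.32 and 0.52, the same mean of 0.35 with a smaller SD of 0.15, and passed (adjusted P of 0.0236). The order of the arrays was the same in both, array 1 lowest and array 4 highest. *SRSF11* had the lowest mean of the family, 0.00 ± 0.13, with ratios of 0.16, 0.02, -0.02 and -0.15. *SRSF4*, *SRSF5*, *SRSF7* and *SRSF10* had means between 0.05 and 0.11, and none of these 4 passed.

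Printed here are the brighter probe of *SRSF1*, which passed, and both probes of *SRSF12*, of which only the adjacent probe passed. The second probe of *SRSF1* also passed but is not printed. The printed probes run 5′ to 3′ and are in lower case throughout, as they share no bases with another probe of their gene.
*SRSF1*, brighter probe: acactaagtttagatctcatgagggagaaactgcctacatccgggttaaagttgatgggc
*SRSF12*, brighter probe: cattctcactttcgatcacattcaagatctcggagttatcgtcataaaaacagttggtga
*SRSF12*, adjacent probe: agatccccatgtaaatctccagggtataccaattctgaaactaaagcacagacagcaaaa

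Among the hnRNPs, RNA-binding proteins that coat precursor mRNA, 2 of 14 genes passed (14.3%, beside 22.4% of all genes). Of the means, 11 were above 0, and the median was 0.13. Of the 14 genes, 9 were positive on all 4 arrays and 1 was negative on all 4. *HNRNPA1* encodes a protein that mostly represses splice sites and counteracts *SRSF1* at many exons. Its brightest probe (NM_001242509, chromosome 6, 71184546 to 71184605) gave 0.24, 0.20, 0.23 and 0.51. As with *SRSF1*, array 4 was above the rest. The mean was 0.29 ± 0.15, 1.23-fold, higher on 4 of 4 arrays with an adjusted P of 0.0374. It was 0.25 with normexp correction and 0.61 with no lowess. The mean of *HNRNPK*, given next, was 0.23 and 0.45 in the same settings.

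*HNRNPK*, which encodes a poly(C)-binding protein, passed with its brightest probe only. That probe, on an unplaced sequence from 259823423 to 259823482, gave 0.20, 0.18, 0.29 and 0.45, a mean of 0.28 ± 0.12 and an adjusted P of 0.0346. The other 2 probes lie upstream in the gene, from 259825457 to 259825516 and from 259825523 to 259825582. Their means were 0.09 ± 0.24 and -0.04 ± 0.23, and on both of them array 1 was highest and array 4 lowest, the reverse of the brightest probe for array 4. When all tested probes of a gene were averaged, *HNRNPK* was no longer past the threshold.

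*HNRNPD*, the gene for the AU-rich element binding protein AUF1, showed the opposite case. Its brightest probe (ENSECAT00000024337, chromosome 3, 44744938 to 44744997) gave 0.25, 0.17, 0.09 and 0.15, a mean of 0.17 ± 0.06 that missed the threshold (adjusted P of 0.0934). With no lowess the mean was 0.48, and when its probes were averaged it was 0.24, past the threshold in both. The other 5 probes, all overlapping it or each other, had means from 0.22 to 0.32 and passed. All 6 were positive on every array. *HNRNPF*, the gene for a protein that binds runs of guanine, had the lowest mean of the family, with ratios of 0.04, -0.04, -0.25 and -0.37 and a mean of -0.15 ± 0.19 (adjusted P of 0.236). It was -0.22 without array 1 and -0.08 without array 4, and in neither case was it the lowest. Without array 1 *HNRNPC* lay lower, with ratios of -0.23, -0.23 and -0.28 on arrays 2 to 4. *HNRNPC* and *HNRNPLL* were the other hnRNP genes with means below 0, at -0.14 and -0.10, and neither passed. *HNRNPA2B1* had ratios of 0.31, 0.19 and 0.30 on arrays 1, 3 and 4 and -0.52 on array 2.

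For the recognition of the 3′ splice site and the branch point, 0 of 8 tested genes passed the threshold of limma or of the methods' t-test. Among all genes, 22.4% passed in limma and 2.63% in the t-test. Before adjustment 1 of the 8 genes had a P under 0.05 in each test, beside 37.9% of all genes in limma. In limma this was *SF3B4*, which was tested on its signal in HMB-treated cells only, and with signal required in both channels 0 of the 7 remaining genes had such a P. *U2AF2*, the subunit that binds the polypyrimidine tract, was the only gene of its family under the name pattern. It gave -0.05, 0.15, -0.43 and 0.27, a mean of -0.02 ± 0.31 with no common sign. Its mean was 0.00 with normexp correction and -0.16 with no lowess. The 1 probe of *U2AF2* was dim, with a mean log2 signal of 5.12 in control and 5.11 in HMB-treated cells. Among the tested splicing genes only *SF3B4* was dimmer. In the SF3A and SF3B complexes of the U2 snRNP, 6 of 7 means were above 0, with a median of 0.04 that turned to -0.01 with normexp correction and was 0.20 with no lowess. *SF3B1*, which contacts the branch point, gave -0.05, -0.10, -0.07 and -0.01, a mean of -0.06 ± 0.04 (adjusted P of 0.499), and it was 0.16 with no lowess.

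*SF3B4* had the highest mean of all splicing genes, but this value rests on a signal that was mostly not measured in control cells. Its probe (ENSECAT00000026683, on an unplaced sequence from 79417156 to 79417215) was well above background on 4 of 4 arrays in HMB-treated cells and on 1 of 4 in control cells. The ratios were 2.58, 0.92, 0.27 and 0.93, and array 1 stood far above the rest. The mean was 1.17 ± 0.99, with an adjusted P of 0.0534 that missed the threshold. Without array 1 it was 0.71 and with normexp correction 0.34, and *SF3B4* passed under both and with an intensity trend, so that neither its size nor its side of the threshold is settled. The other 6 genes of the complexes had means from -0.06 to 0.11.

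Among the SNRP genes, which encode the Sm ring proteins and proteins particular to the U1 and U2 snRNPs, 1 of 8 passed. This was 12.5%, beside 22.4% of all genes. Of the means, 6 were above 0, and the median was 0.10. *SNRPA* encodes the A protein of the U1 snRNP, which binds a stem-loop of its small nuclear RNA. Its probe (ENSECAT00000013847, chromosome 10, plus strand) is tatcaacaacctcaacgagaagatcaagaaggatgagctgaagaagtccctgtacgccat, written 5′ to 3′. The alignment of this 60-base probe spans 3689 bases of the genome, from 11072730 to 11076418, so that it crosses at least 1 intron. The ratios were 0.79, 0.27, 0.23 and 0.28. Array 1 was far above the other arrays, which were close together. The mean was 0.39 ± 0.27, 1.31-fold, with an adjusted P of 0.0455. Without array 1 the mean was 0.26, the smallest of the 6 genes past the threshold, where with it the mean was the largest, and with no lowess *SNRPA* missed the threshold (mean 0.38). With a minimum of 1.3-fold added to the threshold, *SNRPA* was the 1 splicing gene left.

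*SNRPB2*, the U2 snRNP protein related to that of *SNRPA*, had the lowest mean of all splicing genes in the lowess ratios of all 4 arrays. This place depends on the arrays and on the probe chosen. The means of *HNRNPF* and *SNRPB2* were -0.22 and -0.17 without array 1 and -0.19 and -0.16 without array 2. With probes averaged they were -0.15 and -0.12. *SNRPB2* was the 1 gene with a P under 0.05 before adjustment in limma that was lower. With normexp correction 3 such genes were lower and in the methods' t-test 5, and with no lowess the mean of *SNRPB2* was -0.07, above that of *U2AF2*. Its brighter probe (NM_001253840, chromosome 22, 7774132 to 7774191) gave -0.12, -0.13, -0.14 and -0.23, a mean of -0.16 ± 0.05 with 4 of 4 arrays negative and an adjusted P of 0.106. Its second probe, from 7774210 to 7774269, had a mean of -0.09 ± 0.04. The Sm proteins *SNRPD1*, *SNRPD2* and *SNRPD3* had means of 0.09, 0.08 and -0.02, and the gene of Sm B, *SNRPB*, had the widest spread of the family, from -0.41 on array 4 to 0.77 on array 1.

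The LSM proteins form rings around U6 small nuclear RNA and, with *LSM1* in place of *LSM8*, around mRNA that is about to be degraded. Of 8 tested genes, 2 passed, beside 22.4% of all genes, 7 means were above 0 and the median was 0.22, the highest of the families with more than 1 gene, at 0.18 with normexp correction and 0.31 with no lowess. Of the 8 genes, 3 lay within 0.2 of 0. *LSM2* (ENSECAT00000019874, chromosome 20, 24885778 to 24885949, minus strand) is a subunit of both rings. Its probe, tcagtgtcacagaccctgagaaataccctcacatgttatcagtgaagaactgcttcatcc, gave 0.52, 0.33, 0.21 and 0.37. The mean was 0.36 ± 0.12, 1.28-fold, higher on 4 of 4 arrays with an adjusted P of 0.0182, the lowest P among the genes past the threshold.

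*LSM12* encodes a protein with an LSM domain that is not part of the rings around U6. Its brighter probe (ENSECAT00000009316, chromosome 11, 18221999 to 18222058) gave 0.21, 0.32, 0.32 and 0.22, the narrowest spread among the 6 genes. The mean was 0.27 ± 0.06, 1.2-fold, with an adjusted P of 0.0258, and its second probe, which shares 40 of its 60 bases, also had a mean of 0.27. *LSM1* was close to 0 on every array, at -0.08, -0.06, -0.05 and -0.06, with a mean of -0.06 ± 0.01 (adjusted P of 0.459). Without the filter on dim probes *LSM1* was the 1 splicing gene called lower, and with no lowess its mean was 0.03. *LSM4* (0.30, adjusted P of 0.0525) and *LSM10* (0.23, adjusted P of 0.0576) missed the threshold narrowly, with positive ratios on all 4 arrays. *LSM10* is a subunit of the U7 snRNP, which acts on histone mRNA.

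Many of the PRPF proteins are subunits of the tri-snRNP or the Prp19 complex. Of 11 tested genes, 0 passed in limma or in the methods' t-test, and before adjustment 3 had a P under 0.05 in limma and 5 in the t-test. Among all genes, 22.4% passed in limma and 2.63% in the t-test, and 37.9% had such a P in limma. The median of the PRPF genes was 0.09, with 8 means above 0. *PRPF8*, the U5 protein at the centre of the spliceosome, gave 0.44, -0.18, -0.01 and 0.13, a mean of 0.09 ± 0.26 (adjusted P of 0.55) with array 1 highest. The mean was -0.02 without array 1 and 0.19 without array 2, so that it has no settled sign. *PRPF4B*, a kinase, had the highest mean of the family, with ratios of 0.10, 0.15, 0.17 and 0.55 and a mean of 0.24 ± 0.21 (adjusted P of 0.103), array 4 being far above the rest. Its place as the highest depends on array 4, without which the mean was 0.14. The dimmer of the *PRPF38A* probes passed (0.25 ± 0.08, adjusted P of 0.0346), and the brighter did not (0.17 ± 0.07, adjusted P of 0.1).

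A further 29 probes of the same families carry other names in the annotation and were identified by their description or by RefSeq. They belong to 14 genes, 10 of which have no probe under the name pattern. All 29 were tested, and 8 probes passed, all higher, where 22.8% of all probes passed. By the brightest of these probes, 1 of the 14 genes passed, beside 22.4% of all genes, and the median was 0.11. That gene was *SRSF9* (ENSECAT00000009312, chromosome 8, 13510600 to 13510659), an SR protein with a short arginine and serine domain. It gave 0.22, 0.28, 0.28 and 0.24, the 4 arrays lying close together, with a mean of 0.26 ± 0.03 and an adjusted P of 0.0249, but it missed the threshold without array 2 or 3. Its mean was 0.45 with no lowess and 0.18 with normexp correction, past the threshold in both. *SRSF3*, the smallest SR protein, had a mean of 0.15 ± 0.11 at its brighter probe (adjusted P of 0.144) and of 0.21 ± 0.05 at the other (adjusted P of 0.0491). With no lowess the mean at the brighter probe was 0.23, past the threshold. *SRSF6* had 4 probes, the means of which were between -0.17 and 0.00, and none of them passed. *U2AF1*, which reads the AG at the end of the intron, gave 0.16, 0.16, -0.29 and 0.22 at its brighter probe, with a mean of 0.06 ± 0.24, but with no lowess the mean was 0.46 and passed. *SNRPN*, an imprinted gene in mammals that encodes a protein close to Sm B, gave 0.11, -0.12, -0.15 and -0.47, a mean of -0.16 ± 0.24 that was -0.25 without array 1 and -0.06 without array 4. Probes of *HNRNPD* from a second stretch of chromosome 3, between 44671728 and 44674484, passed in 4 of 6 cases, with means from 0.15 to 0.33. The description names them *HNRNPD*, but the stretch lies apart from the other probes of that name and may belong to a neighbouring gene of the same kind. No probe named *SRSF2* was found.

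Of the 58 genes, 24 had several probes, and 62 of the 125 probes share at least 15 bases with another probe of their gene, so that they are not independent measurements. The range of the means of the tested probes of a gene was 0.08 in the median over 23 genes and was under 0.1 for 13 of them. It was largest for *HNRNPK*, at 0.32. *HNRNPA1* had 10 probes, of which 5 passed, with means from 0.18 to 0.36. Its probes are shown because the arrays changed places along the gene. In the stretch nearest the 5′ end, 3 overlapping probes were highest on array 2 (from 0.50 to 0.55) and lowest on array 3 (from -0.17 to -0.10), and none of them passed. In the next stretch, 4 of the 5 overlapping probes had their lowest ratio on array 2 (from 0.01 to 0.13), and 1 did not. The cause of the difference between the stretches was not tested. The 3 and the 4 probes follow in order along chromosome 6 of EquCab1, plus strand and 5′ to 3′, with capitals for the bases shared with another *HNRNPA1* probe.
*HNRNPA1*, 71180852 to 71180911, mean 0.21 ± 0.27: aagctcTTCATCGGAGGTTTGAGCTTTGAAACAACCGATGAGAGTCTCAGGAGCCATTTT
*HNRNPA1*, 71180858 to 71180917, mean 0.22 ± 0.29: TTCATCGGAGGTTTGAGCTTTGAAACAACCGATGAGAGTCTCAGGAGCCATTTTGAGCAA
*HNRNPA1*, 71180859 to 71180918, mean 0.18 ± 0.29: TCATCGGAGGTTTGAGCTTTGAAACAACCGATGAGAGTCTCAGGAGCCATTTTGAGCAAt
*HNRNPA1*, 71181586 to 71181645, mean 0.30 ± 0.15: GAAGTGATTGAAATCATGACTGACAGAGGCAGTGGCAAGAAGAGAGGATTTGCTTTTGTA
*HNRNPA1*, 71181606 to 71181665, mean 0.28 ± 0.23: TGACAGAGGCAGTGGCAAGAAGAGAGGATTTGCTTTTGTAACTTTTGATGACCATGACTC
*HNRNPA1*, 71181626 to 71181783, mean 0.36 ± 0.22: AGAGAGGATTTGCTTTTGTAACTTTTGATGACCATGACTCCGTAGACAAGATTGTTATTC
*HNRNPA1*, 71181646 to 71181803, mean 0.34 ± 0.24: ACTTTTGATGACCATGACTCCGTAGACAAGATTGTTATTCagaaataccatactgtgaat

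*LSM5*, another subunit of both rings, also had 10 probes, in 2 stretches of 5 that each overlap almost entirely. The means were from 0.21 to 0.35 and none passed. In each of the 10 probes array 1 was slightly below 0 and array 4 was highest, between 0.49 and 0.80, so that neighbouring probes repeated the differences between arrays. *SNRPD1*, with 8 overlapping probes, had means between 0.09 and 0.15 and none passed.

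Beyond these families, 9 lists held 130 other genes of splicing, of which 107 had a probe under their symbol and 105 were tested. Of these, 12 passed (11.4%), 8 higher and 4 lower, with a median of 0.04, beside 22.4% of all genes, 10.9% higher and 11.6% lower. Each of the 12 had the same sign on every array on which it was measured. Without array 1, 2, 3 or 4 the number past the threshold was 7, 2, 3 and 8, and *CLK1* fell short of it without array 2. *CLK1*, a kinase that phosphorylates SR proteins in the nucleus, gave -0.53, -0.30, -0.25 and -0.42, a mean of -0.38 ± 0.13 with an adjusted P of 0.016. It was the 1 gene past the threshold among 6 tested kinases of SR proteins, which had a median of -0.17. *CLK2*, *CLK3* and *CLK4* had means of 0.04, 0.06 and -0.12, and *SRPK1* and *SRPK2* of -0.22 and -0.25, none of them past the threshold. The signal of *SRPK1* in HMB-treated cells was well above background on 2 of 4 arrays.

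The RNA helicases, which drive the rearrangements of the spliceosome, had 4 of 11 genes past the threshold (36.4%), 3 higher and 1 lower, beside 22.4% of all genes. The dimmest of the 11 was *DHX35*, with a mean log2 signal of 4.83 in control and 5.37 in HMB-treated cells. *DHX35* gave 0.73, 0.42, 0.47 and 0.55, a mean of 0.54 ± 0.14 with an adjusted P of 0.00618. It passed whichever array was left out, but not in the methods' t-test. Its mean was 0.21 with normexp correction and 0.37 with no lowess. By contrast, *DDX42* missed the threshold without any 1 of the 4 arrays, *WDR77* without array 1, 2 or 3, and *TGS1* without array 1, 3 or 4. *DHX38* (0.38), measured on 3 arrays, and *DDX46* (0.34) were also higher. *DDX42* was lower, with a mean of -0.26 ± 0.11 and an adjusted P of 0.0386. In the assembly of snRNPs, 4 of 15 genes passed (26.7%, near the 22.4% of all genes). *WDR77*, a cofactor of the methyltransferase that modifies Sm proteins, had a mean of 0.35 ± 0.12 (adjusted P of 0.0187). *GEMIN5* and *GEMIN8* of the SMN complex were both at 0.31. *TGS1*, which makes the trimethylguanosine cap of small nuclear RNA, was lower, at -0.32 ± 0.19 (adjusted P of 0.0413), but missed the threshold with an intensity trend and with normexp correction, where it was -0.15.

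In the remaining lists, 3 genes passed. *PPIL1*, a cyclophilin of the active spliceosome, was higher with a mean of 0.35 ± 0.14 (adjusted P of 0.0212), the 1 of 15 genes of the Prp19 and catalytic complexes to pass. *CASC3* of the exon junction complex, 1 of 6, had a mean of 0.25 ± 0.13 (adjusted P of 0.0485). This was 0.05 with normexp correction and 0.06 with no lowess, past the threshold in neither. *CASC3* was also the dimmest of those 6, with a mean log2 signal of 4.55 in control and 4.81 in HMB-treated cells. *PTBP2*, a repressor of exons, was lower, at -0.31 ± 0.14 (adjusted P of 0.0309), the 1 of 15 other hnRNP-like genes. Its paralogue *PTBP1* had the highest mean of that list, 0.34 ± 0.23, positive on 4 of 4 arrays, and missed the threshold (adjusted P of 0.0517). *CASC3* and *PTBP2* missed the threshold without any 1 of the arrays, and *PPIL1* without array 2 or 3. In limma, 0 of 12 SR-related genes, 0 of 15 other snRNP genes and 0 of 10 genes of the 3′ splice site and minor spliceosome passed, and 0, 5 and 2 of them had a P under 0.05 before adjustment. In the methods' t-test 0, 1 and 0 passed. Among all genes, 22.4% passed in limma and 2.63% in the t-test, and 37.9% had a P under 0.05 before adjustment in limma. The medians of the SR-related, other snRNP and 3′ splice site lists were 0.06, 0.10 and 0.01.

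**Figure D2:**
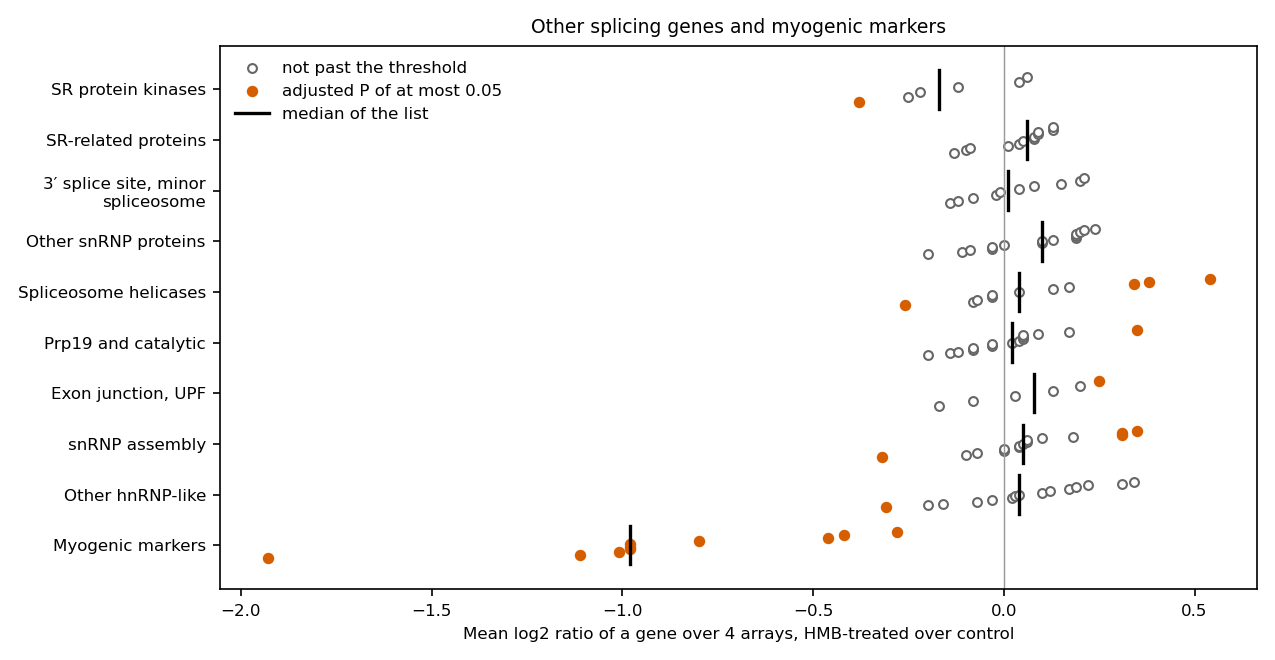
Mean log2 ratio over the 4 arrays, HMB-treated over control (horizontal axis), of each tested gene in 9 lists of other splicing genes and in the list of myogenic markers (rows), filled where the adjusted P was at most 0.05, with a bar for the median of the list. The medians of the splicing lists lie between -0.17 and 0.10, and that of the myogenic markers is -0.98.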

How the data were processed

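The authors read the arrays with a microarray scanner and the Feature Extraction software. Its version is 10.10.1.1 in the file headers, whereas the methods of the study name another version. The authors deposited log10 ratios, Cy5 to Cy3, with background subtracted and linear and lowess dye normalisation applied. They also deposited intensity values and quality marks of each spot. The log10 ratios were multiplied by 3.32. Control spots (1417 on each array) and spots marked non-uniform or outlying (11, 17, 32 and 15 on arrays 1 to 4) were left out, and spots of a probe were averaged. At least 3 values were required, or 2 with an array left out. Positions are those of the files on EquCab1.

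The software was limma 3.58.1 (R 4.3.3) with Python 3.11.15, numpy 2.4.6, pandas 2.3.3 and matplotlib 3.10.9, and the procedure was tested on simulated data. RefSeq names came from the genes of another horse assembly, for 484 probes. The members and lists were chosen with earlier results of these data known. The genes named were drawn from the highest and lowest mean of each family, up to 3 called genes a family with 1 sign on all arrays, *SRSF1*, *SRSF2*, *SRSF3*, *SRSF9*, *HNRNPA1*, *HNRNPD*, *U2AF1*, *U2AF2*, *SF3B1*, *PRPF8*, *SNRPN* and *LSM1*, and the called genes of highest and lowest mean in each other list. Further genes were picked for the text once their values were known. The alternatives were the methods' t-test (a one-sample test that only the workbook supplied with the study names, its methods giving default software settings), an intensity trend with a robust prior, normexp correction (offset 50) with loess, median centring with no lowess, dim probes kept, a requirement for signal in both channels, marked spots kept, the values of the summary table, separate channels with and without the array as a block, a minimum fold of 1.3, averaging over the probes of a gene, and leaving out each array. The addition of genes named by description was an alternative chosen after seeing the data.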

Additional observations from a re-analysis of the deposited data

Results flagged for a closer look

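Among the 56 tested splicing genes, 10 (17.9%) had 1 array far from the other arrays, where chance gives about 1 in 20. Among all 15606 tested genes with a value on every array, 967 (6.2%) did. The difference between these shares was not tested. The array was array 4 for 5 genes, array 1 for 4 and array 2 for 1. On array 4, the log2 ratio was 0.48 for *SRSF1* (0.26 to 0.28 on the others), 0.51 for *HNRNPA1* (0.20 to 0.24), 0.32 for *SRSF7* (-0.05 to -0.03), 0.29 for *HNRNPH2* (0.00 to 0.02) and 0.55 for *PRPF4B* (0.10 to 0.17). On array 1 it was 0.79 for *SNRPA* (0.23 to 0.28), 0.57 for *LSM4* (0.17 to 0.22), 0.50 for *HNRNPUL1* (0.07 to 0.10) and 0.17 for *HNRNPC*, the others being negative (-0.28 to -0.23). On array 2 it was -0.52 for *HNRNPA2B1*, the others being positive (0.19 to 0.31). The cause was not tested.

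Among 38 further values looked at in the same way, those of other named genes, cell type markers and family medians, 2 had 1 array apart. These were *TGS1* on array 2, at -0.04 (-0.44 to -0.40 on the others), and *U2AF1* on array 3, at -0.29 (0.16 to 0.22).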

How the results depend on the processing

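The 6 called splicing genes were also called with an intensity trend (9 genes), normexp correction (8), signal required in both channels (8), and marked spots kept (6), and 5 of them with the mean of all probes of a gene (7). The values of the summary table and separate channels with the array as a block give the same ratios and the same calls by construction, which says nothing about stability. Other settings moved the counts, and the cause was not tested. With the methods' t-test, 768 probes passed in place of 6257, 0 splicing genes (18 at a P under 0.05 before adjustment) in 0 families in place of 4, and 1 gene of the other lists in place of 12. With no lowess, 15 splicing genes passed, 15 of them higher, with a median of 0.21 in place of 0.10, and 20 genes of the other lists. With no filter on dim probes, 3690 probes and 3 splicing genes passed, 2 higher and 1 lower, in 2 families, and 6 of the other lists. With separate channels and no block, these were 2226 probes, 0 splicing genes (6 before adjustment), 0 families and 2 others. With a minimum fold of 1.3, a stricter threshold by construction, they were 3863, 1 (1 higher), 1 and 2. Averaging probes gave 3469 genes, which are fewer than probes by construction. With 1 array left out, which leaves fewer values by construction, 2573 to 4957 probes, 0 to 6 splicing genes (0 to 6 higher), 0 to 4 families and 2 to 8 others passed. The addition of genes named by description, chosen after seeing the data, gave 7 called of 66. The median signal over background was 3.16 to 3.821 in Cy3 and 4.675 to 5.848 in Cy5, which limits what can be said of dim probes such as those of *LSM11*.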
